A study of Rattus norvegicus and Mus musculus with 34 samples.

Results

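Cartilage and endochondral genes were examined in the healing tissue of a periodontal bone defect in rats. They are 10 genes chosen by name out of the 20022 genes of the rat tables, namely Col2a1, Col9a1, Col10a1, Col11a1, Acan, Sox9, Comp, Ihh, Matn3 and Chad, and each of the 10 was found under its symbol. A defect of standard size was made in the buccal bone of the mandible of male wild-type Sprague-Dawley rats of 6 to 8 weeks. In the sensory nerve− groups the inferior alveolar nerve, which carries sensation from the mandible, was also transected and a segment of it removed. In the sensory nerve+ groups it was left intact. Every rat had the bone defect, and penicillin was given after surgery. RNA of the healing tissue, which the labels describe as mixed cells, was sequenced at days 3, 7 and 14. There were 4 rats in each of 5 groups and 3 rats in the sensory nerve+ group at day 3, 23 in all.

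In endochondral bone formation, chondrocytes first lay down a cartilage template, then enlarge (hypertrophy) and are replaced by bone. The mandible forms largely by the other route, in which osteoblasts make bone without a template, but cartilage can appear in healing fractures. Sox9 is the transcription factor that defines the chondrocyte lineage. Type II collagen (Col2a1), with the minor fibrillar type XI collagen (Col11a1) and the type IX collagen bound to the fibril surface (Col9a1), makes the fibrils of cartilage, and aggrecan (Acan) is the large proteoglycan that holds water between them. Comp, Matn3 and Chad encode matrix proteins of cartilage, of which cartilage oligomeric matrix protein (Comp) is also abundant in tendon and ligament. Indian hedgehog (Ihh) is the signal sent by chondrocytes that begin to enlarge, and type X collagen (Col10a1) is the matrix protein of hypertrophic chondrocytes. Col11a1, Acan and Sox9 are also used outside cartilage.

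Levels are given as CPM, the rounded expected count of a gene per 1000000 counts of its library after scaling by the trimmed mean of M-values (TMM). Transcript lengths were not used, so levels are compared between rats and not between genes. Library totals ran from 14854389 to 18742274 counts, and TMM factors from 0.496 to 1.35, the lowest being that of replicate 3 of the sensory nerve− group at day 14. In bulk tissue, fewer cells of a type and less RNA per cell cannot be told apart. The day 7 group without the nerve is held in a deposited table of its own that has no rat with an intact nerve, so that table and nerve transection cannot be told apart at day 7, nor table and day between the sensory nerve− groups.

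The name cartilage was checked against 7 markers of chondrocytes outside the 10 genes. Matn1, which encodes a matrilin confined largely to cartilage, stood at 0 to 4 counts per rat and at 0 in 13 of 23 rats. Cnmd, which encodes the cartilage protein chondromodulin, stood at 0 to 31 counts and at 0 in 14 rats. Snorc lay between 20 and 66 counts in every rat. Hapln1, which encodes the link protein of aggrecan, ran from 1 to 3989 counts, Col9a2 from 4 to 1404, Col9a3 from 4 to 1070 and Col11a2 from 36 to 14105. Matn1 and Cnmd were thus at or near 0 in most rats while the other 5 markers had counts in every rat, and the 10 genes are described below by their names rather than as a sign of chondrocytes.

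Genes of other tissues differed widely between the rats. The summed level of 7 enamel and dentin genes, the matrix of teeth, was at least 100 CPM in 8 rats and up to 23120 CPM, whereas the highest of the other 15 rats had 23.5 CPM. These 8 rats were replicates 2 and 3 of both day 3 groups, replicates 2 and 3 of the sensory nerve+ and replicate 3 of the sensory nerve− group at day 7, and replicate 1 of the sensory nerve− group at day 14. They are called rats with tooth genes here. The sum of 10 skeletal muscle genes lay between 32.2 and 983 CPM at day 3 and between 2472 and 37980 CPM at day 7. Within 5 of the lists, the genes with the highest mean over all rats were Amelx for enamel and dentin (0 to 11590 CPM), Acta1 for muscle (2.61 to 13490 CPM), Col1a1 for osteoblasts (5244 to 36670 CPM), Postn for tendon and ligament (411 to 5761 CPM) and Krt5 for oral epithelium (0 to 468 CPM). Krt13, a keratin of the oral lining, was at 0 in every rat of 4 of the 6 groups.

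Promoter sequences from RefSeq, assembly GRCr8, matched 7 of the 10 genes. Those of Col2a1, Sox9 and Ihh are named only. The deposited counts were made on mRatBN7.2, so the positions that follow belong to GRCr8 alone. The 250 bases before the start of transcription are printed for 3 of the 7 genes. They run 5′ to 3′ on the strand of the gene, with TATAAA in capitals where it occurs. They are the promoter of Col10a1 at chr20:39737286-39737535 on the plus strand, that of Col9a1 at chr9:34081114-34081363 on the plus strand and that of Comp at chr16:19089549-19089798 on the minus strand.
Col10a1: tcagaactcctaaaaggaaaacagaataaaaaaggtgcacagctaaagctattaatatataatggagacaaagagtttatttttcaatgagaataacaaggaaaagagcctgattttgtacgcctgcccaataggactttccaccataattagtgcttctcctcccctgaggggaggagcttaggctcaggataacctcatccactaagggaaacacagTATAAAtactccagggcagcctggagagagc
Col9a1: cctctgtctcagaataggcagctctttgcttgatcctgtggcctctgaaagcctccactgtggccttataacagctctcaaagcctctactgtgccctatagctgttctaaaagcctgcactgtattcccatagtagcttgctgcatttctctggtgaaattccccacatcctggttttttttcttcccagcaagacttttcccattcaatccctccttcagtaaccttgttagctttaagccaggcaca
Comp: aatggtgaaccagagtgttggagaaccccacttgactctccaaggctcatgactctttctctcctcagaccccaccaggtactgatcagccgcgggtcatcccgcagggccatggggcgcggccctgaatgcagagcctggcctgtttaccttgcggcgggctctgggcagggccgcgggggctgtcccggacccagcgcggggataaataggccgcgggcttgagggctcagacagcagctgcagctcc
The box TATAAA, which marks promoters with a fixed start, was found in the windows of Col10a1 and Chad, beginning at position -31 and position -29 counted back from the start, and in neither orientation in those of the other 5. It was present in 12.9% of 33469 promoter windows of the same length. The SOX motif AACAAT and the RUNX motif ACCACA, searched on both strands, were in none of the 7 windows, against 10.3% and 14.5% of all windows. With no SOX or RUNX match, no match overlapped another.

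Col2a1 had the widest range of the fibril genes. In the sensory nerve+ group it stood at 0.0654, 3.28 and 0.359 CPM at day 3, at 6.37, 19.1, 8.38 and 48.3 CPM at day 7, and at 15.5, 1.05, 5.40 and 64.6 CPM at day 14. In the sensory nerve− group it stood at 0.0580, 0.712, 1.82 and 0.0535 CPM at day 3, at 2.02, 1.79, 0.928 and 2.89 CPM at day 7, and at 162, 432, 2.76 and 158 CPM at day 14. Every sensory nerve+ rat of day 7 thus lay above every sensory nerve− rat of that day, while at day 14, 3 sensory nerve− rats lay above all 4 sensory nerve+ rats and the fourth lay among them. The counts behind these levels ran from 1 to 7660.

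By group mean, Col2a1 was at 189 ± 178 CPM (SD, n = 4) in sensory nerve− rats at day 14, 21.7 ± 29.3 CPM (SD, n = 4) in sensory nerve+ rats at day 14, 20.5 ± 19.3 CPM (SD, n = 4) in sensory nerve+ rats at day 7, 1.91 ± 0.808 CPM (SD, n = 4) in sensory nerve− rats at day 7, 1.24 ± 1.78 CPM (SD, n = 3) in sensory nerve+ rats at day 3 and 0.660 ± 0.831 CPM (SD, n = 4) in sensory nerve− rats at day 3. In this order only the neighbours of day 7, sensory nerve+ and sensory nerve−, had ranges that did not overlap.

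Col11a1, whose product joins type II collagen in the same fibrils, had no such range. It was read with 1125 to 16175 counts in every rat, and its group means lay between 295 ± 106 CPM (SD, n = 4) in sensory nerve+ rats at day 14 and 580 ± 271 CPM (SD, n = 4) in sensory nerve− rats at day 14. The lowest rat was replicate 1 of the sensory nerve+ group at day 3, at 73.6 CPM, and the ranges of all 6 groups overlapped.

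**Figure D1:**
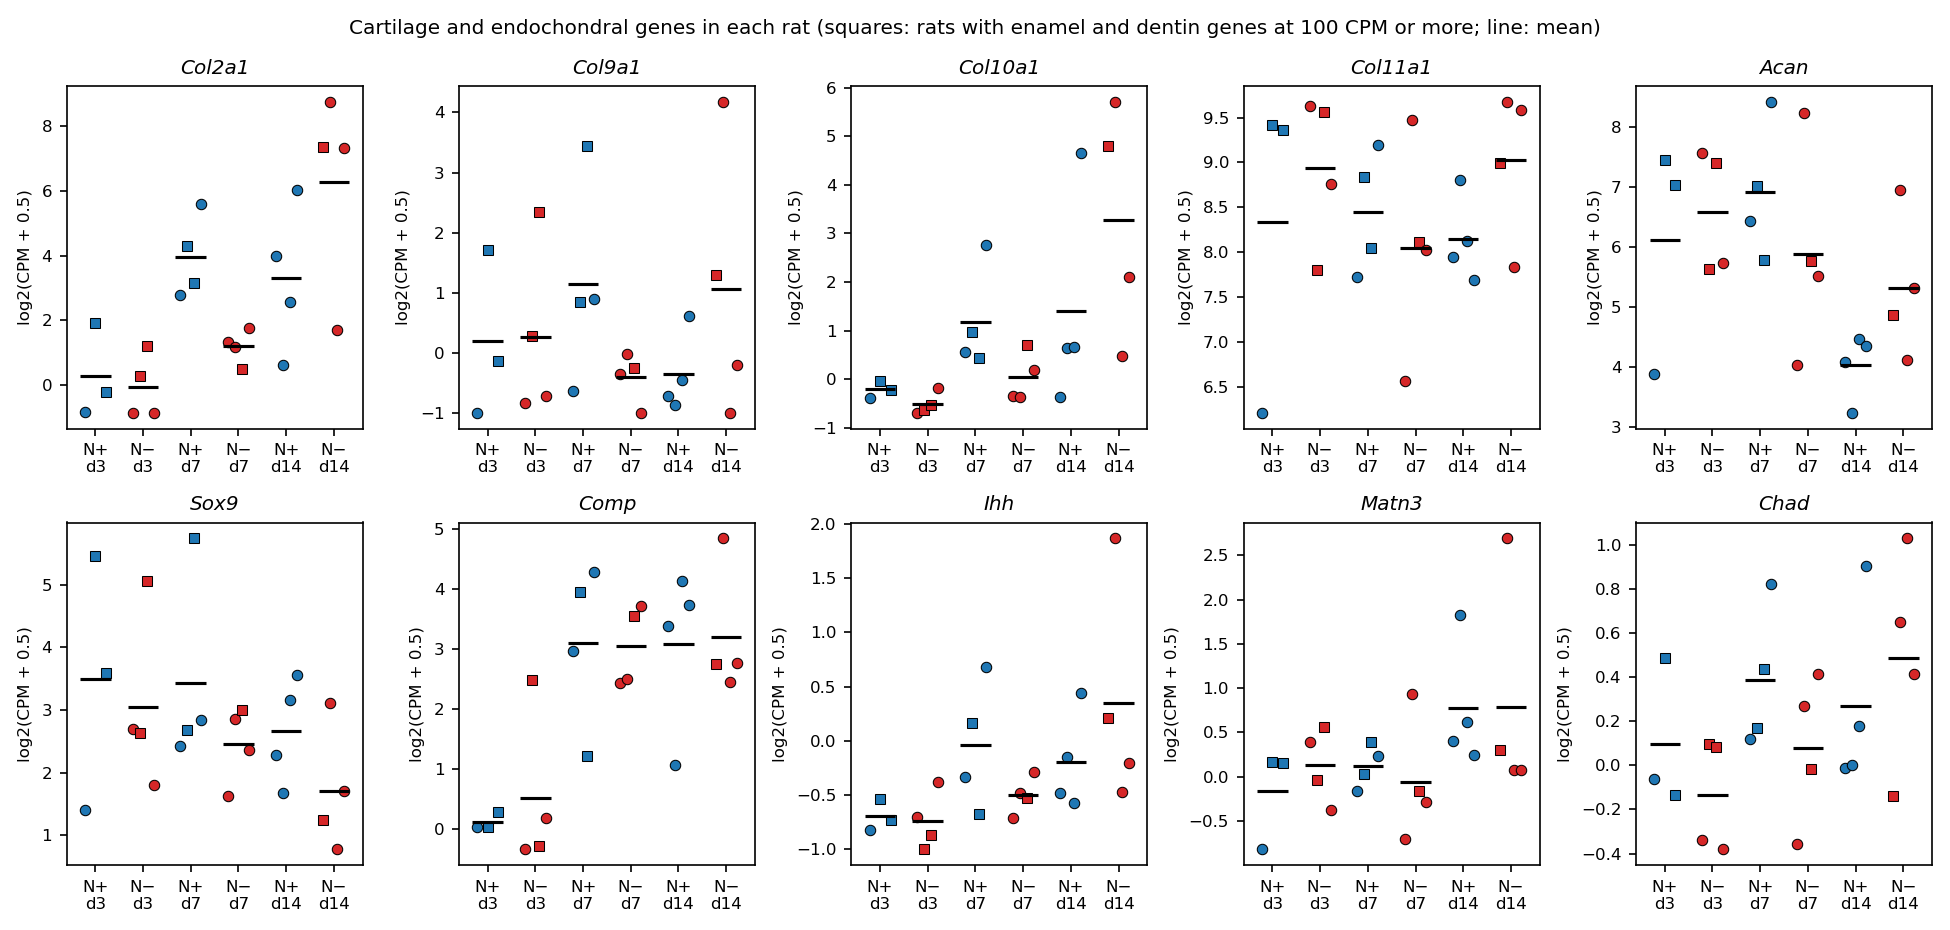
Level of each of the 10 genes in each of 23 rats, as log2(CPM + 0.5), with the 6 groups on the horizontal axis (N+, sensory nerve+; N−, sensory nerve−; d, day), 1 point per rat, squares for the 8 rats with tooth genes, and a line at the mean of the log2 values. Col2a1 lies higher in the sensory nerve+ than in the sensory nerve− rats at day 7 with no overlap, and 1 rat, replicate 2 of the sensory nerve− group at day 14, holds the highest level of 7 genes.

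Col10a1, the marker of hypertrophy, was low at day 3, with 2 to 10 counts per rat. Among sensory nerve+ rats it was at 0.980, 1.46, 0.855 and 6.27 CPM at day 7 and at 0.273, 1.05, 1.09 and 24.9 CPM at day 14. Among sensory nerve− rats it was at 0.281, 0.271, 1.12 and 0.643 CPM at day 7 and at 27.4, 52.1, 0.883 and 3.79 CPM at day 14. High values were thus single rats: replicate 4 of the sensory nerve+ group at both later days, which are separate libraries, and replicates 1 and 2 of the sensory nerve− group at day 14.

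Ihh was at the edge of detection. It had 0 to 5 counts per rat at day 3, 2 to 13 at day 7 and 2 to 56 at day 14, and its group means ran from 0.108 ± 0.117 CPM (SD, n = 4) in sensory nerve− rats at day 3 to 1.10 ± 1.38 CPM (SD, n = 4) in sensory nerve− rats at day 14. The highest level, 3.16 CPM, was in replicate 2 of that last group, the same rat that had the highest Col2a1 and Col10a1. The ranges of the 2 nerve groups overlapped at each day, and the count filter left Ihh out of each fit of 2 groups. In 1 fit over all 23 rats, Ihh was called from day 3 to day 14 in sensory nerve− rats, beside 4228 genes called in all. Ihh had 0 to 5 counts at day 3 and 2 to 56 at day 14 in these rats. It passed the count filter of that fit only through rats of later days, so this call is no support for a rise.

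Sox9 was highest in 3 rats, none of them of day 14, and all 3 rats had tooth genes. Its levels in the sensory nerve+ group were 2.16, 43.5 and 11.6 CPM at day 3, 4.90, 5.94, 52.9 and 6.69 CPM at day 7 and 4.37, 2.70, 8.39 and 11.2 CPM at day 14. Those in the sensory nerve− group were 5.98, 5.70, 32.6 and 3.00 CPM at day 3, 2.59, 6.77, 7.52 and 4.63 CPM at day 7 and 1.88, 8.12, 1.21 and 2.78 CPM at day 14. The ranges of the 2 nerve groups overlapped at each day.

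Col9a1 was also high in those 3 rats. It was at 2.76 CPM in replicate 2 of the sensory nerve+ group at day 3, at 4.57 CPM in replicate 3 of the sensory nerve− group at day 3 and at 10.3 CPM in replicate 3 of the sensory nerve+ group at day 7. Its highest level, 17.6 CPM, was in replicate 2 of the sensory nerve− group at day 14, whose enamel and dentin genes summed to 0.338 CPM. Over the other 19 rats its levels lay between 0 and 1.96 CPM.

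Beside these values, the median of Sox9 was 9.56 CPM in the 8 rats with tooth genes and 4.63 CPM in the other 15, and that of Col9a1 was 1.63 and 0.147 CPM. The 3 highest rats were all among the 8 for Sox9, Col9a2 and Hapln1, and 2 of 3 were for Col9a1. For Comp, Ihh, Matn3, Chad, Acan and Col11a1 none of the 3 highest rats was among the 8, and for Col2a1 and Col10a1 it was 1 of 3. Acan nonetheless had a median of 92 CPM in the 8 rats and 39.4 CPM in the other 15. That of Col11a1 was 482.5 and 279.5 CPM. Medians of Comp, Ihh, Matn3, Chad, Col2a1 and Col10a1 were lower in the 8 rats. The part of tooth tissue in these levels was not tested.

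**Figure D2:**
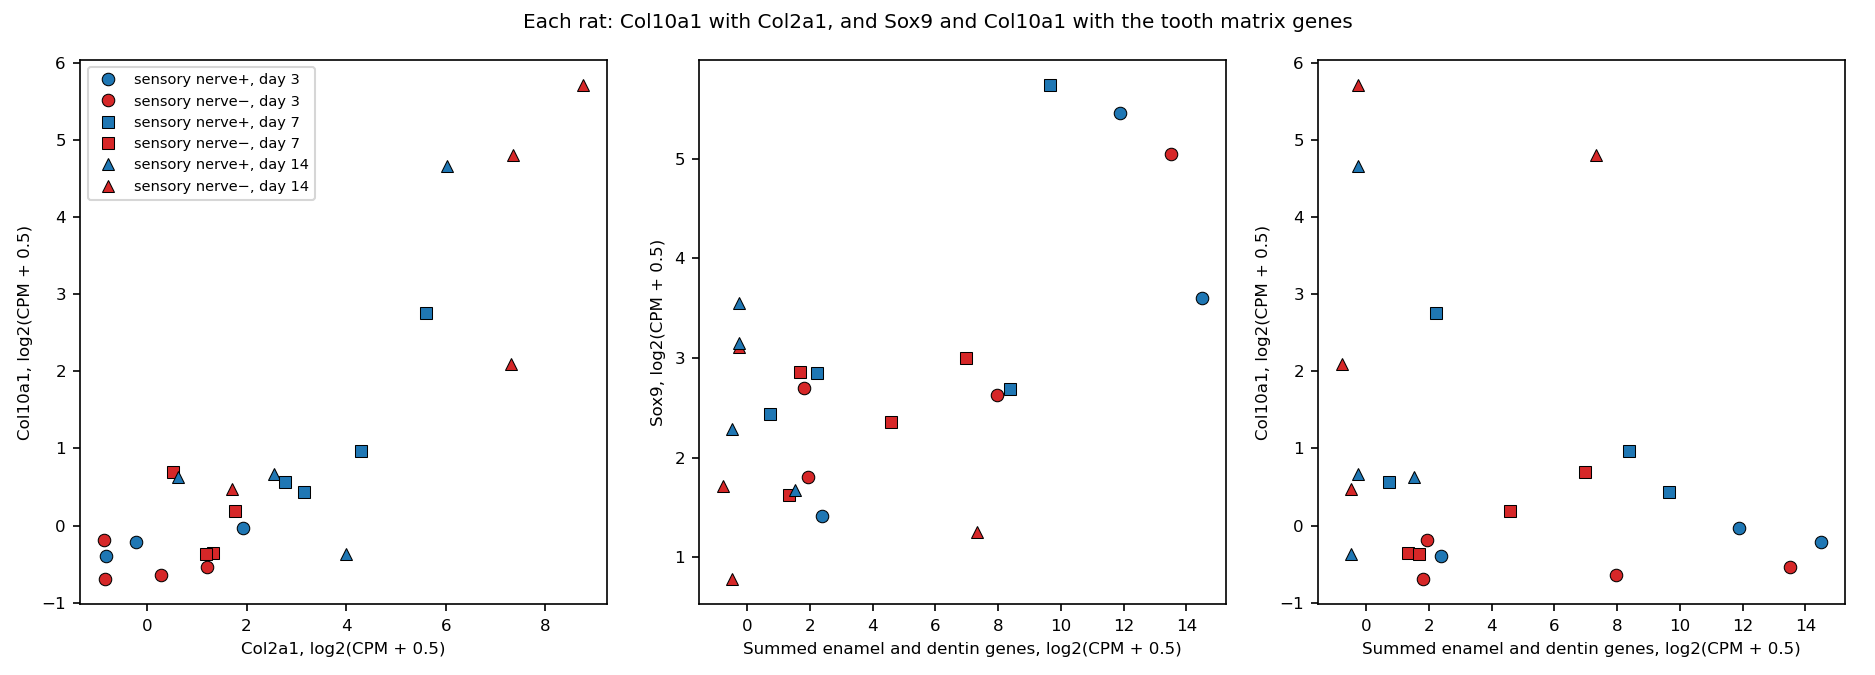
Each point is 1 of 23 rats, blue for sensory nerve+ and red for sensory nerve−, with the day given by the symbol. Both axes are log2(CPM + 0.5): Col10a1 against Col2a1 (left), Sox9 against the sum of 7 enamel and dentin genes (centre) and Col10a1 against that sum (right). Of the 4 rats with the highest Col10a1, 3 are also among the 4 with the highest Col2a1, and the 3 rats with the highest Sox9, at 32.6 CPM or more, all have tooth genes.

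Acan was among the better read of the 10 genes, with 152 to 5561 counts per rat. In sensory nerve+ rats it stood at 14.3, 174 and 130 CPM at day 3, at 86.4, 130, 54.4 and 345 CPM at day 7 and at 16.4, 8.90, 21.6 and 19.9 CPM at day 14. With the nerve transected it stood at 191, 49.5, 168 and 52.9 CPM at day 3, at 15.9, 301, 54.0 and 45.4 CPM at day 7 and at 28.6, 124, 16.8 and 39.4 CPM at day 14. The sensory nerve+ rats of day 14 all lay below those of day 7, and the nerve groups overlapped at each day.

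Acan was at 154 ± 131 CPM (SD, n = 4) in sensory nerve+ rats at day 7, its highest group mean, and at 16.7 ± 5.63 CPM (SD, n = 4) in sensory nerve+ rats at day 14, its lowest. The other 4 group means were 115 ± 74.6 CPM (SD, n = 4) in sensory nerve− rats at day 3, 106 ± 82.7 CPM (SD, n = 3) in sensory nerve+ rats at day 3, 104 ± 132 CPM (SD, n = 4) in sensory nerve− rats at day 7 and 52.2 ± 48.7 CPM (SD, n = 4) in sensory nerve− rats at day 14. Neighbours in this order overlapped in every case.

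Comp was below 1 CPM in 6 of the 7 rats of day 3 and above it in every rat of days 7 and 14. It stood at 0.523, 0.524 and 0.719 CPM in sensory nerve+ rats at day 3, at 7.30, 14.9, 1.84 and 18.98 CPM at day 7 and at 9.95, 1.60, 17.1 and 12.8 CPM at day 14. Without the nerve it stood at 0.290, 5.13, 0.326 and 0.642 CPM at day 3, at 4.89, 5.15, 11.2 and 12.6 CPM at day 7 and at 6.22, 28.4, 4.97 and 6.29 CPM at day 14. All 3 sensory nerve+ rats of day 3 lay below every sensory nerve+ rat of the later days. Replicate 2 of the sensory nerve− group at day 3, the one rat of day 3 above 1 CPM, was also the rat of day 3 in which 8 Schwann cell genes summed to 2862 CPM, against 73.2 to 131 CPM in the other rats of that day.

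Matn3 and Chad were read with few counts. Matn3 had 1 to 106 counts per rat, and its highest levels were 5.97 CPM in replicate 2 of the sensory nerve− group at day 14 and 3.05 CPM in replicate 2 of the sensory nerve+ group at day 14. The other 21 rats lay between 0.0654 and 1.41 CPM. Chad, a leucine-rich protein that binds chondrocytes, had 5 to 24 counts and lay between 0.268 and 1.55 CPM, with group means from 0.422 ± 0.165 CPM (SD, n = 4) in sensory nerve− rats at day 3 to 0.965 ± 0.474 CPM (SD, n = 4) in sensory nerve− rats at day 14. At this depth no difference in Chad between neighbouring groups stood clear of their spread.

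The comparison of sensory nerve− with sensory nerve+ rats at each day asks what the loss of sensory innervation changed. None of the 10 genes passed the test at day 3, 7 or 14. The test is edgeR's quasi-likelihood test on the 2 groups of each day, with Benjamini-Hochberg adjustment over all genes tested. Its p-values set the difference between the groups against the estimated spread between these libraries. The filter on low counts kept 8, 7 and 8 of the 10 genes at days 3, 7 and 14. Over all genes, edgeR called 0% of 14695, 14716 and 14610, with 122, 215 and 1362 at an unadjusted p under 0.05, while DESeq2 called 0, 1 and 95 (0%, 0.0068% and 0.65%).

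At day 3 the log2 fold changes of the 8 tested genes lay between -0.92 for Col2a1 (SE 1.46) and 1.43 for Comp (SE 1.12), with 5 above and 3 below 0. Their median was 0.14, beside -0.01 over all genes. None of the 8 was free of overlap between the groups, and the adjusted p was 1 for each of the 8. The sign at day 3 depended on single rats. Without replicate 1 of the sensory nerve+ group, Acan, Col11a1 and Col9a1 were at -0.43, -0.31 and -0.23. Without replicate 2 of the sensory nerve− group, Comp was at -0.50, and without replicate 2 of the sensory nerve+ group Col2a1 was at 1.62 and Sox9 at 0.81. Leaving out the rats with tooth genes leaves 1 sensory nerve+ rat at day 3, replicate 1, which had the lowest Sox9 of that day, against 2 sensory nerve− rats. Sox9 was then at 1.05 and Comp at -0.16.

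At day 7 Col2a1 was 3.43 lower on the log2 scale in sensory nerve− rats (log2 fold change -3.43, SE 0.71), with all 4 sensory nerve− rats below all 4 sensory nerve+ rats. Its unadjusted p was 0.00112 and its adjusted p 0.9997 by edgeR, and 0.00394 adjusted by DESeq2, for which Col2a1 was the one gene called out of 14716 (0.0068%). Groups without overlap, with sensory nerve− lower, occurred in 0.394% of all genes. With each rat left out in turn the value stayed between -3.73 and -2.55, the smaller change being without replicate 4 of the sensory nerve+ group, and no adjusted p by edgeR passed the threshold.

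The other 6 genes tested at day 7 were also at negative values, with overlap between the groups. Col10a1 was at -1.995 (SE 0.80), Sox9 at -1.75 (SE 0.85), Acan at -0.58 (SE 0.91), Chad at -0.53 (SE 0.44), Comp at -0.33 (SE 0.65) and Col11a1 at -0.19 (SE 0.58), each with an adjusted p of 0.9997. The median of the 7 was -0.58, beside -0.01 over all genes. Without replicate 4 of the sensory nerve+ group, Acan, Comp and Col11a1 were at 0.23, 0.10 and 0.13, and without replicate 1 of the sensory nerve− group Col11a1 was at 0.12. Sox9 was at -0.12 without replicate 3 of the sensory nerve+ group, the rat with its highest level, and at -0.31 without the rats with tooth genes. Col10a1 was at -0.89 without replicate 4 of the sensory nerve+ group and at -3.17 without the rats with tooth genes. The summed osteoblast genes lay between 7426 and 21150 CPM in sensory nerve+ and between 5347 and 23530 CPM in sensory nerve− rats at day 7. Tendon and ligament genes lay between 1995 and 7090 CPM and between 3266 and 5870 CPM. Although the sums overlapped, 10 of 10 osteoblast genes were at negative values at day 7, with a median of -0.88, none of them called, and their part was not tested.

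At day 14 the difference in Col2a1 had the other sign, 3.09 (SE 1.47) with an adjusted p of 0.519 by edgeR and 0.228 by DESeq2, and the groups overlapped through 1 sensory nerve− rat. Acan was at 1.63 (SE 0.62), Col10a1 at 1.60 (SE 1.54), Col11a1 at 0.96 (SE 0.41), Matn3 at 0.52 (SE 0.90), Chad at 0.34 (SE 0.52) and Comp at 0.14 (SE 0.78), whereas Sox9 was at -0.93 (SE 0.67), and none passed the test. The median of the 8 was 0.74, beside 0.03 over all genes. Scaling by library totals moved the median of all genes to -0.42 and Chad to -0.11. Without replicate 2 of the sensory nerve− group, Comp was at -0.85 and Matn3 at -1.18, and without replicate 2 of the sensory nerve+ group Comp was at -0.29.

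Other tissues also differed between the day 14 groups. Osteoblast genes summed to 7416 to 19470 CPM in sensory nerve+ and to 11640 to 43780 CPM in sensory nerve− rats, muscle genes to 284 to 26630 CPM and 259 to 7132 CPM, and Schwann cell genes to 366 to 2907 CPM and 210 to 390 CPM. Replicate 2 of the sensory nerve− group had the highest osteoblast sum as well as the highest level of 7 of the 10 genes. The part of these tissues in the differences was not tested.

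**Figure D3:**
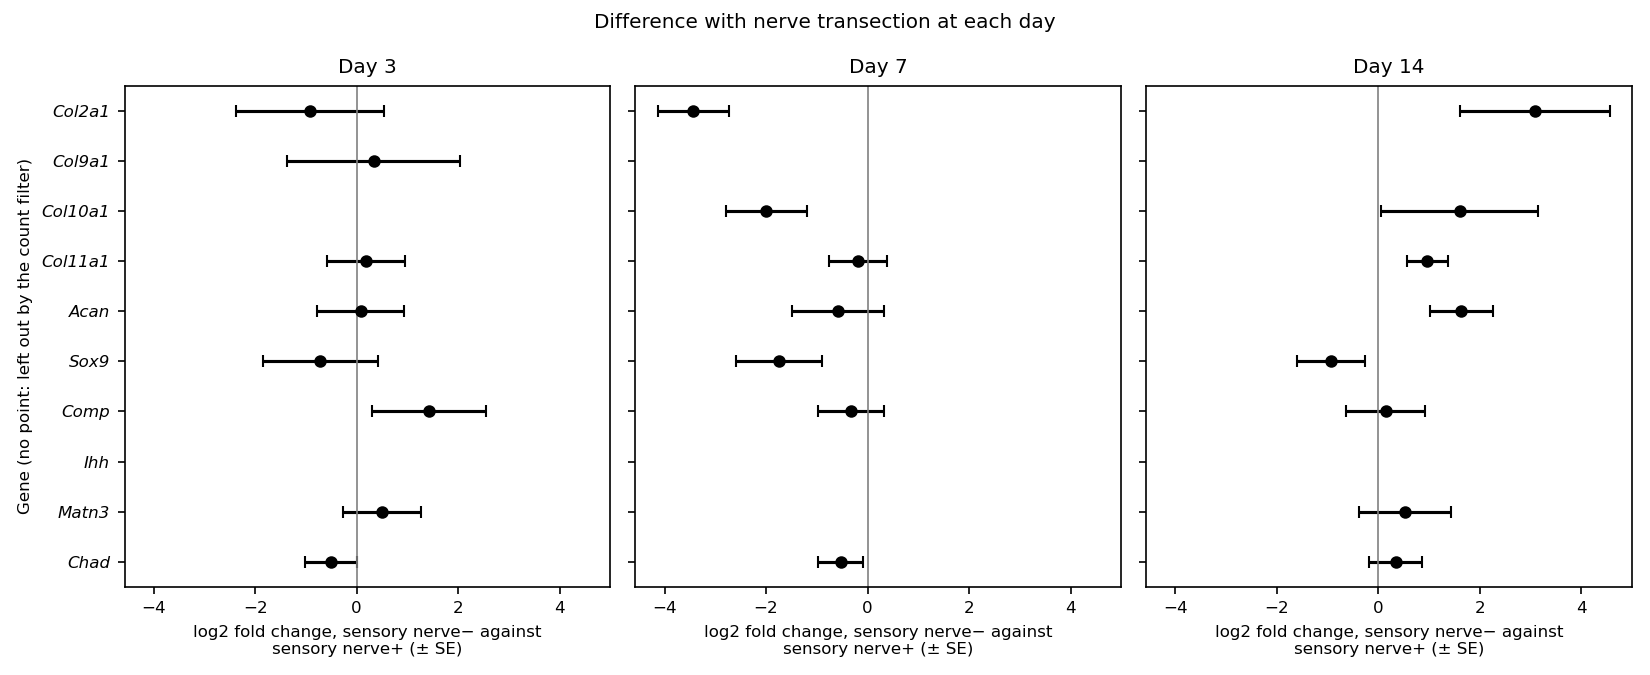
Log2 fold change of sensory nerve− against sensory nerve+ rats, with its standard error, for each of the 10 genes at days 3, 7 and 14. Genes left out by the count filter have no point. Col2a1 lies at -3.43 at day 7 and at 3.09 at day 14, and none of the 10 passed edgeR's adjusted test at any day.

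Whether the difference with transection changed between days was tested as an interaction over all 23 rats, where all 10 genes passed the count filter. None was called, beside 0% of 15858 genes for both pairs of days. Between days 7 and 14, edgeR gave 611 genes (3.85%) an unadjusted p under 0.05 and DESeq2 called 2 genes (0.0126%), neither of them among the 10. Between days 3 and 7 these numbers were 164 (1.03%) and 8 (0.0504%), again with none of the 10 called by DESeq2, and no member had an unadjusted p under 0.05.

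The 4 members with an unadjusted p under 0.05 between days 7 and 14 were Col2a1, Col9a1, Col10a1 and Ihh, all with the difference higher at day 14. Col2a1 moved by 6.55 (SE 1.80, unadjusted p 0.00172), Col9a1 by 7.34 (SE 2.41, unadjusted p 0.00653), Col10a1 by 3.62 (SE 1.66) and Ihh by 2.72 (SE 1.20). The adjusted p of each was 0.884 by edgeR, and 0.367 for Col2a1 by DESeq2. With 1 rat left out the values ranged from 5.67 to 8.11 for Col2a1, 4.68 to 8.75 for Col9a1, 2.52 to 6.70 for Col10a1 and 1.31 to 3.34 for Ihh. The smallest values of Col9a1 and Ihh were without replicate 2 of the sensory nerve− group at day 14 and that of Col10a1 without replicate 4 of the sensory nerve+ group at day 7, while the largest of Col10a1 was without replicate 4 of the sensory nerve+ group at day 14. In the same contrast 10 of 10 osteoblast genes were positive, with a median of 2.80 and 5 at an unadjusted p under 0.05, and 10 of 10 muscle genes were negative, with a median of -2.47. Their part was not tested. This contrast uses the same day 7 and day 14 rats as the comparisons above and is no second observation of them.

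Changes with time were compared within each nerve group. In sensory nerve+ rats, Comp rose from day 3 to day 7 (log2 fold change 4.21, SE 0.83, adjusted p 0.0310), 1 of 9 genes tested, beside 6.67% of 15016 genes called and 4.88% called higher. Over all genes 733 were called higher and 269 lower, and 507 and 72 under scaling by library totals. Col2a1 was at 4.06 (SE 1.30) and Col10a1 at 2.70 (SE 0.86), each with an adjusted p of 0.110. DESeq2 called all 3 (18.7% of all genes), with adjusted p of 1.39e-06 for Comp, 0.00326 for Col2a1 and 0.0191 for Col10a1. In each of the 3 genes the 4 rats of day 7 lay above the 3 rats of day 3, as in 12.7% of all genes. Without replicate 2 of day 3 Col2a1 was at 6.51 and was called (adjusted p 0.0483). That rat had 69 counts of Col2a1, against 1 and 7 in the other rats of day 3 and 130 to 570 at day 7. Col2a1 and Col10a1 met the count filter only through the day 7 rats. Their calls here are no further support for a rise.

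Comp also rose from day 3 to day 14 in sensory nerve+ rats (4.14, SE 0.82, adjusted p 0.0419), 1 of 8 tested, beside 5.78% of 15065 genes called and 2.69% called higher. Over all genes 406 were called higher and 465 lower, and 358 and 189 under scaling by library totals. Both calls of Comp rested on the full set of rats. With 8 to 14 counts per rat at day 3, Comp met the count filter only through the later rats. From day 3 to day 7 the call was lost without any 1 of 6 of the 7 rats, with values of 3.82 to 4.37 and adjusted p of 0.0683 to 0.122, and held without replicate 3 of day 7 (4.56, adjusted p 0.00293). From day 3 to day 14 it was lost without any 1 of 6 rats, with adjusted p of 0.0822 to 0.147, and held without replicate 2 of day 14 (4.53, adjusted p 0.00083). Without the rats with tooth genes, which leaves 1 sensory nerve+ rat at day 3 whose spread is taken from the other group, the values were 4.61 and 4.31 and neither was called (adjusted p 0.107 and 0.237). Beside Comp, muscle genes summed to 59.6 to 317 CPM at day 3, 5817 to 23350 CPM at day 7 and 284 to 26630 CPM at day 14 in sensory nerve+ rats. Tendon and ligament genes summed to 615 to 1111 CPM at day 3, 1995 to 7090 CPM at day 7 and 517 to 3012 CPM at day 14, and the lowest Comp rat of day 14 was also the lowest in muscle and in tendon and ligament genes. Their part in the rise of Comp was not tested.

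The other differences from day 3 to day 14 in sensory nerve+ rats did not pass edgeR's test. Col2a1 was at 4.08 (SE 1.70, adjusted p 0.171), Col10a1 at 4.20 (SE 1.71, adjusted p 0.164) and Acan at -2.67 (SE 0.75, adjusted p 0.0770), of which DESeq2 called Col2a1 and Acan (22.4% of all genes). Col2a1 and Col10a1 met the count filter here only through the day 14 rats. Without the rats with tooth genes, where replicate 1 is the one rat of day 3 left, Acan was at 0.24, and without replicate 1 of day 3, the rat with the lowest Acan of that day, it was called. From day 7 to day 14 in sensory nerve+ rats, Acan was at -3.18 (SE 0.60) with no overlap, an unadjusted p of 0.000729 and an adjusted p of 0.244 by edgeR, and 1.6e-05 by DESeq2. Groups without overlap, with day 14 lower, occurred in 3.43% of genes, and 0.0202% of 14867 genes were called by edgeR, none of them a member, beside 1401 at an unadjusted p under 0.05 and 325 by DESeq2 (2.19%). Col9a1 was at -3.22 (SE 1.34, adjusted p 0.519) in that comparison.

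Col2a1 rose from day 3 to day 14 in sensory nerve− rats by 8.03 on the log2 scale (SE 1.61, adjusted p 0.0126), with all 4 rats of day 14 above all 4 of day 3, as in 10.6% of all genes. It was 1 of 8 genes tested, beside 23.5% of 14449 genes called and 8.89% called higher by edgeR and 33.6% called by DESeq2. The call held with each of the 8 rats left out in turn, at values of 7.22 to 9.26. Col2a1 had 1 to 39 counts per rat at day 3 and 25 to 7660 at day 14. It thus passed the count filter only through the day 14 rats. The call and its holding are no further support for a rise beyond the levels of the rats. Without the 3 rats with tooth genes in these groups Col2a1 was at 11.54 and was not called (adjusted p 0.0906). Over all genes 1284 were called higher and 2112 lower, and 308 and 876 under scaling by library totals. Comp was at 2.78 (SE 1.07, adjusted p 0.0946), and at 4.70 with an adjusted p of 0.0198 without replicate 2 of day 3. Col10a1 was left out by the count filter here, although all 4 rats of day 14 lay above all 4 of day 3. It was called without that filter, in 1 fit over all 23 rats and in 5 of the 8 fits without 1 rat. Over all genes 3066 and 4228 were called in the first 2, and 1620 to 4346 with each of the 8 rats left out. Among these 8 rats Col10a1 had 2 to 7 counts at day 3 and 8 to 925 at day 14. It thus passes a count filter only through the day 14 rats, and these calls are no further support for a rise. Beside Col2a1, in the fit of the 2 groups, 4 muscle genes and 1 osteoblast gene were called higher, and 2 enamel and dentin and 2 epithelial genes lower. Their part was not tested.

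From day 7 to day 14 in sensory nerve− rats, Col2a1 was at 6.64 (SE 1.27) and Col10a1 at 5.16 (SE 1.23), each with an adjusted p of 0.104 by edgeR and of 5.2e-09 and 6.29e-05 by DESeq2. Here edgeR called 0.0138% of 14447 genes, none of them among the 7 members tested, with 3397 at an unadjusted p under 0.05, and DESeq2 called 1991 (13.8%). Without replicate 2 or replicate 3 of day 14 Col2a1 was called, with adjusted p of 0.0399 and 0.0424. Replicate 3 of day 14, at 2.76 CPM, was the one rat of that day within the range of day 7. Osteoblast genes were positive in 10 of 10 in this comparison, with a median of 2.60 and 8 called by DESeq2, while 8 of 8 tendon and ligament genes and 10 of 10 muscle genes were negative, with medians of -1.83 and -2.59. Their part was not tested. From day 3 to day 7 none of 6 members was called by edgeR, beside 10.5% of 14576 genes, and Comp was at 2.37 (SE 0.96, adjusted p 0.148 by edgeR and 0.0406 by DESeq2, which called 22.1%). Without replicate 2 of day 3, Comp was at 4.30 and was called (adjusted p 0.0418).

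The 10 genes did not vary as one set. Over 23 rats, on log2(CPM + 0.5), the median Pearson correlation of the 45 pairs was 0.385, with 14 pairs over 0.5 and 7 below 0. These rats share libraries, days and nerve groups, so the values describe and do not test. One set held Col2a1, Col10a1 and Ihh, with r of 0.864 for Col2a1 and Col10a1, 0.875 for Col10a1 and Ihh and 0.781 for Col2a1 and Ihh. As deviations from the group means these were 0.721, 0.805 and 0.604.

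Other pairs lay apart from that set. Col11a1 and Acan had an r of 0.675 over all rats and 0.865 within groups, and Col9a1 and Sox9 had 0.651 and 0.836. Col2a1 had an r of -0.00149 with Sox9 and of 0.0327 with Acan over all rats, and of 0.460 and 0.495 within groups. Comp was nearest to Col2a1 (0.663) and farthest from Sox9 (-0.219).

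**Figure D4:**
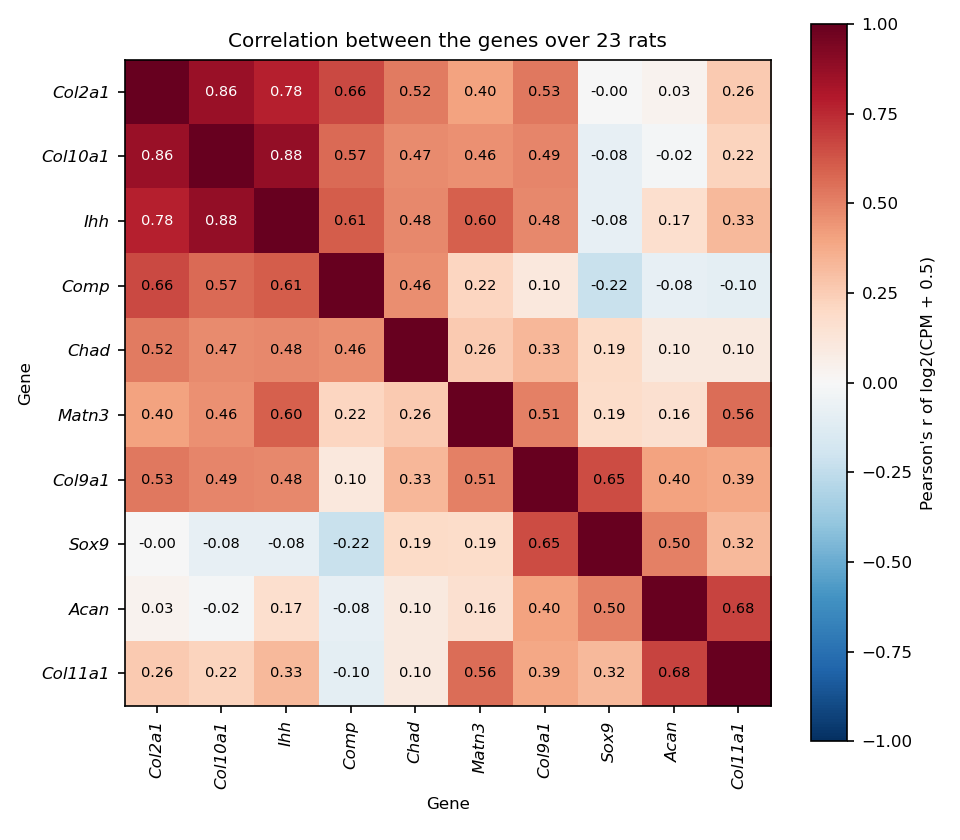
Pearson correlation of log2(CPM + 0.5) between each pair of the 10 genes over 23 rats, from red for positive to blue for negative values. Col2a1, Col10a1 and Ihh form the darkest group, at 0.781 to 0.875, and Sox9 with Comp is the lowest pair at -0.219.

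Outside the 10 genes, those whose log2 level was most like the mean of the 10 standardised log2 levels over 23 rats were Ptprv (r = 0.814), RGD1565367 (0.813), Rbpjl (0.809), Bmp1 (0.800), Matn4 (0.785), Shf (0.781), Adamts10 (0.779), Meak7 (0.778), Ppp1r37 (0.770) and Wnt5b (0.768). Bmp1 encodes the proteinase that trims fibrillar procollagens, Matn4 a matrilin and Wnt5b a secreted Wnt ligand. These genes were picked by their likeness over the same 23 rats, so their group levels are no separate observation. Ptprv was at 163 ± 135 CPM (SD, n = 4) in sensory nerve− and 71.5 ± 16.4 CPM (SD, n = 4) in sensory nerve+ rats at day 14. Matn4 was at 54.4 ± 81.0 CPM (SD, n = 4) and 14.4 ± 3.63 CPM (SD, n = 4), and both spreads in sensory nerve− rats were near or above the mean.

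Lists of other genes of the pathway were described in 4 comparisons. In the comparison at day 7 none of their tested genes was called by edgeR or by DESeq2. Of 16 other cartilage matrix genes 13 were tested, 3 positive and 10 negative in sensory nerve− rats, with a median of -0.21. Hapln1 was at -4.39 (SE 1.66, adjusted p 0.9997) and Cilp2, of the cartilage intermediate layer family, at 1.65 (SE 0.69). Of 12 hedgehog and PTHrP signalling genes 11 were tested and all were negative, with a median of -0.63. Ptch1, the hedgehog receptor and a target of the pathway, was at -2.09 (SE 0.82), and Gli1, its transcription factor and also a target, at -1.96 (SE 0.79).

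Without replicate 3 of the sensory nerve+ group, a rat with tooth genes, Hapln1 was at -1.28, Ptch1 at -0.46 and Gli1 at -0.83, and without all rats with tooth genes they were at -1.59, -0.32 and -0.69. The 3 genes were highest in rats with tooth genes. The median of Ptch1 was 70.3 CPM in the 8 rats and 19.8 CPM in the other 15, that of Gli1 33.6 and 8.26 CPM and that of Hapln1 9.65 and 1.57 CPM, and the 3 highest rats were among the 8 for each. At day 7, 2 sensory nerve+ rats and 1 sensory nerve− rat were among the 8. The part of tooth tissue was not tested.

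The other 3 lists at day 7 held no gene called either. Of the chondrocyte regulators 11 were tested, 3 positive and 8 negative, with a median of -0.03. Fgfr3, a receptor that restrains chondrocyte growth, was at -2.80 (SE 1.06), at -0.68 without replicate 3 of the sensory nerve+ group and at -0.89 without the rats with tooth genes, which held its 3 highest levels. Sox5, a partner of Sox9, was at -0.66 (SE 0.51) and at 0.13 without the rats with tooth genes. Of 10 hypertrophy and cartilage breakdown genes 7 were positive and 3 negative, with a median of 0.38. Alpl, the phosphatase of mineralization, was at -1.82 (SE 0.79) and Spp1, osteopontin, at 1.42 (SE 0.78). Of 12 chondroitin sulfate synthesis genes 7 were positive and 5 negative, with a median of 0.01. Csgalnact2 was at 0.22 (SE 0.18) and Chst11, a sulfotransferase of chondroitin, at -0.36 (SE 0.35), and at 0.17 without the rats with tooth genes.

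At day 14 none of the tested genes of the lists was called by edgeR. Of 13 other cartilage matrix genes 10 were positive and 3 negative, with a median of 0.42. Hapln1 was at 3.30 (SE 1.22) and Matn4 at 1.92 (SE 0.94). Of 10 hypertrophy and cartilage breakdown genes 7 were positive and 3 negative, with a median of 1.43 beside 0.03 over all genes, and 5 had an unadjusted p under 0.05, as had 9.32% of all genes. This was so for 1 of 13 other cartilage matrix, 3 of 10 regulator, 2 of 11 hedgehog and PTHrP, 3 of 12 chondroitin sulfate synthesis, 3 of 10 osteoblast and 5 of 8 Schwann cell genes. Of the 10 genes, 2 of the 8 tested were below it, Acan and Col11a1. Panx3, a channel of prehypertrophic chondrocytes and osteoblasts, was at 2.29 (SE 0.75) and Spp1 at 1.42 (SE 0.50), each with an adjusted p of 0.519. Osteoblasts express several genes of this list, and 10 of 10 osteoblast genes were positive at day 14, with a median of 1.20. Their part was not tested.

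Hedgehog and PTHrP signalling at day 14 had 3 positive and 8 negative genes of 11, with a median of -0.44. Cdon, a co-receptor of hedgehog, was at -1.56 (SE 0.58). Schwann cell genes were negative in 8 of 8 genes at day 14, with 4 called by DESeq2, and their part was not tested.

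Chondrocyte regulators at day 14 were 5 positive and 5 negative of 10, with a median of 0.03. Wwp2, a ubiquitin ligase that works with Sox9, was at 0.53 (SE 0.17) and Mef2c, a regulator of hypertrophy, at -1.22 (SE 0.46). Of 12 chondroitin sulfate synthesis genes 8 were positive and 4 negative, with a median of 0.09. Papss2, which makes the sulfate donor, was at 1.01 (SE 0.36) and Chst11 at 0.58 (SE 0.22).

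**Figure D5:**
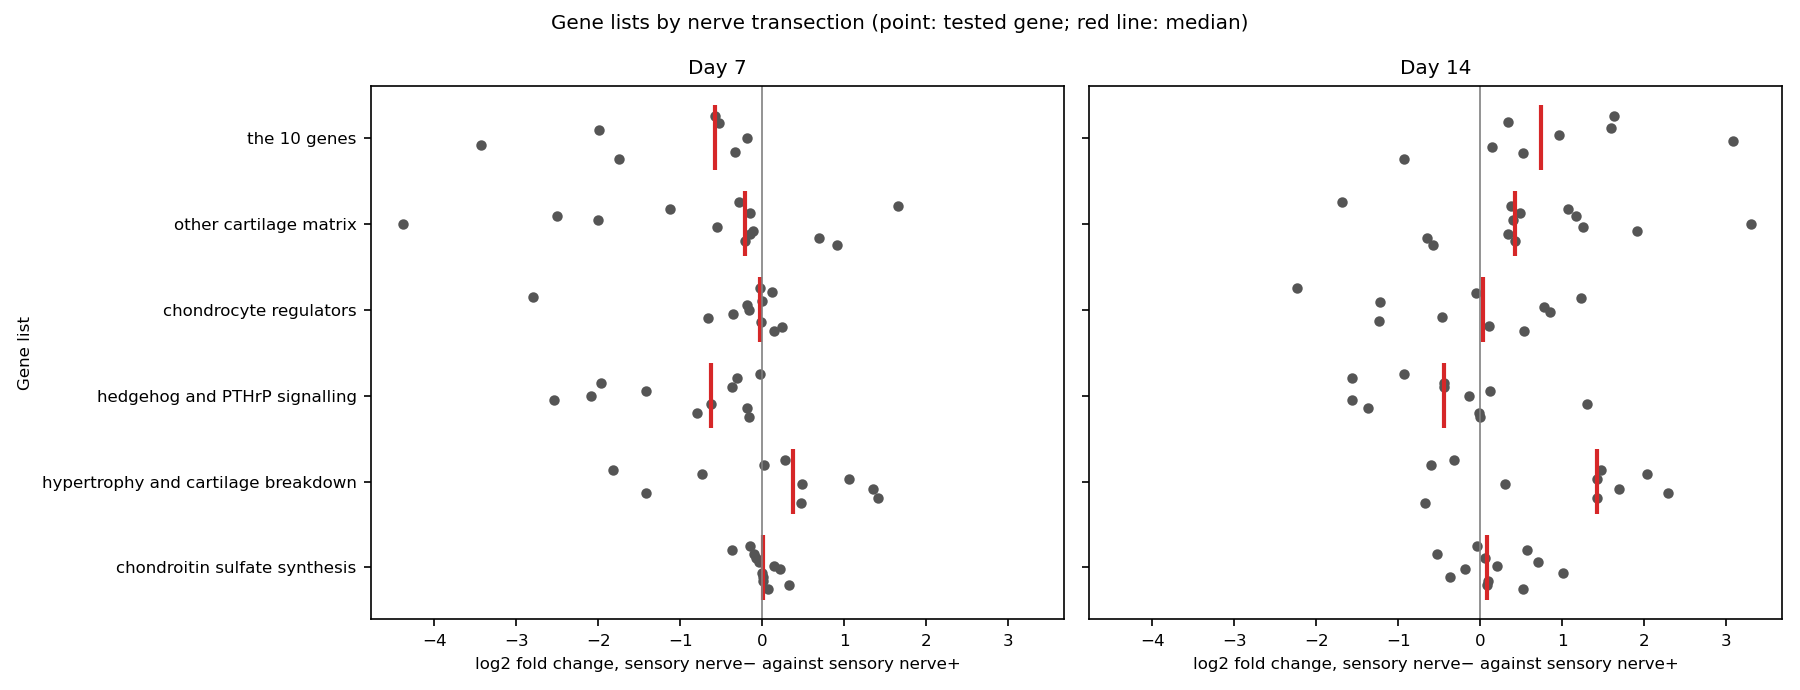
Log2 fold change of sensory nerve− against sensory nerve+ rats for each tested gene of the 10 genes and of 5 lists, at day 7 (left) and day 14 (right), with 1 point per gene and a red line at the median of the list. The medians of the 10 genes are -0.58 at day 7 and 0.74 at day 14, and that of hypertrophy and cartilage breakdown genes is 1.43 at day 14.

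From day 3 to day 14 in sensory nerve+ rats, 5 of 12 chondroitin sulfate synthesis genes were called, beside 5.78% of all genes. In the same comparison 8 of 10 muscle genes and 5 of 8 Schwann cell genes were called higher, with medians of 8.16 and 3.59, and their part was not tested. Papss2 fell by 1.56 (SE 0.21, adjusted p 0.0258), Slc26a2, the sulfate transporter, fell by 0.84 (SE 0.14, adjusted p 0.0362), and Chst11 and Chsy1 fell by 0.90 and 0.61, while Chst3 rose by 2.38 (SE 0.45, adjusted p 0.0411). Among 14 other cartilage matrix genes Cilp rose, from 3.98 ± 1.59 CPM (SD, n = 3) to 183 ± 130 CPM (SD, n = 4), by 5.54 (SE 1.14, adjusted p 0.0428), and Ucma was at 4.17 (adjusted p 0.0781). Among 10 hypertrophy and cartilage breakdown genes Spp1 fell by 2.84 (SE 0.58, adjusted p 0.0427), and Mmp14 was at -0.55 (adjusted p 0.393).

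No gene was called among 10 regulators or 11 hedgehog and PTHrP genes in that comparison. Sox6 was at 2.71 (adjusted p 0.0561), Mef2c at 2.29 (adjusted p 0.0568), Smo at -1.12 (adjusted p 0.0824) and Gli3 at -1.74 (adjusted p 0.0914), and DESeq2 called these 4. Without the rats with tooth genes, which leaves 1 rat at day 3, none of the 7 called genes of these lists was called, while their fold changes kept their direction. Over the alternatives other than leaving out 1 rat, Papss2 stayed between -1.57 and -1.29, Slc26a2 between -0.90 and -0.70 and Chst3 between 2.37 and 3.61. Calls were lost in 5 of these 8 alternatives for Chsy1, 4 for Chst11 and 3 for Slc26a2. Papss2, Chst3, Cilp and Spp1 each lost the call in 2 of 8. With each of 7 rats left out in turn, each of the 7 genes held its call in 1 to 3 fits.

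In sensory nerve− rats from day 3 to day 14, Slc26a2 fell by 1.12 (SE 0.14, adjusted p 0.00293), the 1 gene called of 12 for chondroitin sulfate synthesis. Over all genes edgeR called 23.5% of 14449 in this comparison, a share that none of the lists given here exceeded. Chsy1 was at -0.56 (adjusted p 0.0782). Of 13 other cartilage matrix genes, Snorc rose by 1.16 (SE 0.28, adjusted p 0.0219) and Mia, a small protein secreted by chondrocytes, rose by 1.42 (SE 0.39, adjusted p 0.0345), while Epyc, a small leucine-rich proteoglycan, fell by 2.98 (SE 0.90, adjusted p 0.0464). Spp1 fell by 1.59 (SE 0.44, adjusted p 0.0340) and Mmp14 was at -0.64 (adjusted p 0.0523), of 10 hypertrophy and cartilage breakdown genes.

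With each of 8 rats left out in turn Slc26a2 held its call in all 8 fits, Snorc in 4, Mia and Spp1 in 2 and Epyc in 1. Without the rats with tooth genes none of the 5 was called. Over the alternatives other than leaving out 1 rat, Slc26a2 stayed between -1.46 and -1.05 (highest adjusted p 0.0554) and Spp1 between -1.81 and -1.53. Epyc stayed between -3.31 and -2.54, Snorc between 0.71 and 1.23 and Mia between 1.10 and 1.67. Calls were lost in 1 of 8 of these alternatives for Slc26a2 and in 4 of 8 for Spp1. They were lost in 4 of 7 for Epyc and for Mia and in 2 of 7 for Snorc. No regulator or hedgehog gene was called by edgeR in that comparison, with Mef2c at 0.90 (adjusted p 0.0516), Wwp2 at 0.50 (adjusted p 0.0845), Smo at -0.89 (adjusted p 0.114) and Gli3 at -1.14 (adjusted p 0.117). Whether the changes with time differed between the nerve groups was not tested for these lists.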

How the data were processed

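RNA was taken from the healing tissue of 23 rats and sequenced on the DNBSEQ platform. Per the study's methods and the labels, the authors removed low-quality reads and aligned the rest with HISAT to mRatBN7.2, and Bowtie2 is also listed. The counting program is not given in the sources used here. The deposited values are expected counts per gene, estimated and not scaled. A deposited table of mouse macrophage cultures was not used here.

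Expected counts were rounded. Genes were kept by filterByExpr and tested with edgeR 4.0.16 (quasi-likelihood, TMM, R 4.3.3) within each pair of groups, with interactions over all rats and a threshold of 0.05 on the Benjamini-Hochberg adjusted p. DESeq2 1.42.0 was an alternative, and others were other scalings, filters, pseudocounts, 1 fit over all rats, a replicate block and each rat left out. Leaving out the 8 rats with tooth genes was chosen after seeing the data. The code was tested on simulated data. Named were all 10 genes, the 2 genes per list with the smallest p, called genes of the lists and the 10 genes most alike. Values of 2 list genes that this rule or the marker lists would name are not reported here. Genes and lists were chosen with earlier results of these data known. Library totals, at 14854389 to 18742274 counts, limit precision for genes of few counts.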

Additional observations from a re-analysis of the deposited data

Results flagged for a closer look

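Of 50 groups of 4 rats tested for a sample far from the others, 3 had one by Dixon's criterion, and chance gives about 2.5. Comp stood at 28.4 CPM in replicate 2 of the sensory nerve− group at day 14, against 4.97 to 6.29 CPM in the other 3 rats. Matn3 stood at 5.97 CPM in the same rat, against 0.552 to 0.736 CPM. Sox9 stood at 52.9 CPM in replicate 3 of the sensory nerve+ group at day 7, against 4.90 to 6.69 CPM.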

How the results depend on the processing

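Counts of few reads limit Ihh, Col9a1, Chad, Matn3 and, at day 3, Col10a1, Col2a1 and Comp, and the groups of 3 or 4 rats limit every test. Of the single genes, other alternatives left 560 values on the same side of the threshold and in the same direction, 41 lost and 30 gained a call and 9 reversed. With 1 rat left out these numbers were 564, 74, 14 and 20. A value that was not called and stayed so counts here as on the same side. These numbers therefore do not give the share of calls that held. Where no cause is given, the cause was not tested. Scaling by library totals moved the median of all genes to -0.415 for transection at day 14, -0.397 and -0.422 for day 14 against days 7 and 3 in sensory nerve− rats, and -0.115 and -0.387 for the interactions of days 3 and 7 and of days 7 and 14.

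Values that reversed were, for transection at day 3, Sox9 (0.20 with the replicate block, 1.05 without the rats with tooth genes) and Comp (-0.16 without those rats). At day 7 they were Sox5 (0.13) and Chst11 (0.17), both without those rats. At day 14 they were Chad (-0.11 with library totals, above the median of all genes), Comp (-0.23) and Matn3 (-0.0298), the last pair with the block. Acan from day 3 to day 14 in sensory nerve+ rats was at 0.24 without the rats with tooth genes. With 1 rat left out, transection at day 3 ranged from -0.23 to 2.68 for Col9a1, -0.31 to 0.60 for Col11a1, -0.43 to 0.67 for Acan, -1.46 to 1.61 for Col2a1, -2.03 to 0.81 for Sox9 and -0.50 to 1.78 for Comp. At day 7 it ranged from -0.85 to 0.0935 for Sox5, -0.84 to 0.13 for Col11a1, -1.99 to 0.23 for Acan and -0.70 to 0.10 for Comp. At day 14 it ranged from -0.85 to 0.49 for Comp, -1.18 to 1.15 for Matn3 and -0.0585 to 2.27 for Matn4.

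Of the 10 genes, DESeq2 called 1 for transection at day 7. In sensory nerve+ rats it called 3 from day 3 to day 7, 1 from day 7 to day 14 and 3 from day 3 to day 14. In sensory nerve− rats it called 1, 2 and 1. Library totals gave 1 from day 7 to day 14 in both nerve groups, and 1 fit over 23 rats gave 2 from day 7 to day 14 and 4 from day 3 to day 14 in sensory nerve− rats. Without a count filter 2 were called from day 3 to day 14 in sensory nerve− rats. The stricter filter and the omission of rats with tooth genes each gave 0 where 1 had been called, the former because Comp and Col2a1 were then not tested. With each rat left out, 0 to 1 were called in the sensory nerve+ comparisons with day 3 and in the sensory nerve− comparisons of day 7 with days 3 and 14, and 1 to 3 from day 3 to day 14 in sensory nerve− rats. The median correlation of 0.385 was 0.360 with a pseudocount of 0.1 and 0.367 with 1, and 0.184 to 0.435 with 1 rat left out.

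Over all genes, DESeq2 called 1 and 95 for transection at days 7 and 14 and 8 and 2 for the interactions. For days 3 and 7, 7 and 14 and 3 and 14 in sensory nerve+ rats, where edgeR called 1002, 3 and 871, DESeq2 called 2808, 325 and 3375, library totals 579, 13 and 547, 1 fit over 23 rats 1039, 2 and 2606 and the omission of rats with tooth genes 306, 0 and 1. In sensory nerve− rats, where edgeR called 1524, 2 and 3396, these were 3217, 1991 and 4852, then 1217, 21 and 1184, then 2287, 927 and 4228, and 0, 0 and 315. With each rat left out the 6 counts ranged over 254 to 1547, 0 to 28 and 0 to 3133 in sensory nerve+ rats and 0 to 1359, 0 to 814 and 1620 to 4346 in sensory nerve− rats.

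Rats of the same replicate number did not deviate together in every pair (pairwise r of -0.375 to 0.438). The labels give them a shared number alone, and whether they share a batch was not tested. With the replicate block, edgeR called 122, 0 and 0 genes in sensory nerve+ and 2, 0 and 2350 in sensory nerve− rats for the same 3 pairs of days, and 0 members in sensory nerve+ rats. From day 3 to day 14 in sensory nerve− rats it called 1 member, Comp, and not Col2a1.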
